A study of Rattus norvegicus with 3 samples.

Results

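Peaks of HILS1, a linker histone made by spermatids while their nuclei elongate and condense, were taken where the nearest gene was a cytochrome P450 gene, that is, where the gene symbol in the peak list began with Cyp and a digit. This rule found 206 of 32731 peaks, or 0.629% (95% Wilson interval 0.549 to 0.721), nearest 32 genes of 18 subfamilies on 9 chromosomes. HILS1 was immunoprecipitated in 2 replicates from elongating and condensing spermatids of rat testis at 50 to 60 days of age, and 1 input library was the control. The labels name no treatment and no transgene, and neither their strain nor the number of animals behind a replicate is given in the sources used here. Since the deposited values are 1 list of the regions found in both replicates, with 1 value per peak, no spread between replicates exists for any value below and no difference was tested. Intervals cover counting error only. They take peaks as independent, while the 206 peaks are segments of 165 called peaks, 133 with 1 segment and 32 with more.

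Cytochromes P450 are heme enzymes that insert an oxygen atom into drugs, steroids, sterols, fatty acids and vitamins, with electrons from cytochrome P450 reductase or, in mitochondria, from ferredoxin. Many of their rodent genes lie in tandem arrays of near copies, among them the Cyp2b, Cyp2c, Cyp3a and Cyp4a arrays, which are known mainly for expression in the liver. In the testis the family is known for the steroid enzymes of Leydig cells, for the retinoic acid hydroxylases that protect germ cells from early meiosis and for Cyp51, the lanosterol demethylase of cholesterol synthesis, which is strongly transcribed in spermatids. LINE-1, the repeat class the study asked about, is the most abundant retrotransposon of the rat genome.

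The P450 peaks lay mostly in LINE-1 and mostly away from start sites. LINE-1 was named at 136 of the 206 peaks (66.0%, 59.3 to 72.1), against 77.6% of all peaks, and intergenic DNA held 139 of them and introns 65. The intronic share was 31.6% (25.6 to 38.2), against 13.9% of all peaks. A single peak overlapped a promoter, that of Cyp2c6v1, a single peak lay at a transcript end, that of Cyp20a1, and none lay in an exon or a UTR. The remaining peaks outside LINE-1 were 18 in LTR elements, 13 in other repeats and 39 at which no repeat was named. The class was read at the centre of a peak, so a peak with no repeat named may still hold one elsewhere. None of the 26 promoter peaks and 15 transcript-end peaks of the list had a repeat named. At such peaks the class therefore does not show whether a repeat is present.

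As 1 of the 206 peaks overlapped a promoter, the promoters of these genes were read for their letters in RefSeq's GRCr8 table, as windows of 250 bases before to 50 bases after the start site. Windows were found for 27 of the 32 genes. Cyp2c6v1 was not among them, so the promoter with the peak was not read. Their median GC content was 46.3%, against 51.7% over all 33469 windows given there, and they held a median of 3 CpG dinucleotides against 7. The 33469 were not limited to protein-coding genes or to 1 window per gene. No more than 3 CpG were found in 18 of the 27 windows (66.7%) and in 30.7% of all windows. The letters TATAAA, of the TATA box, stood on either strand in 7 windows (25.9%, all windows 14.2%). AGGTCA, the half-site of nuclear receptors, stood in 13 (48.1%, all windows 16.2%) and CCAAT in 13 (48.1%, all windows 37.5%). Some of the 27 windows belong to near copies in tandem arrays, so related sequences are counted more than once. These shares describe letters, and nothing on binding of a factor follows from them. The windows of 2 genes are shown because the peaks of these genes carry much of the account below: Cyp2j10 has the nearest LINE-1 peaks upstream of a start site, and Cyp2c7 is the gene whose introns hold the most peaks. Capitals mark TATAAA, then AGGTCA and CCAAT, or the reverse complement of any of these, and the base at the start site is the letter after the 250 before it.
Cyp2j10: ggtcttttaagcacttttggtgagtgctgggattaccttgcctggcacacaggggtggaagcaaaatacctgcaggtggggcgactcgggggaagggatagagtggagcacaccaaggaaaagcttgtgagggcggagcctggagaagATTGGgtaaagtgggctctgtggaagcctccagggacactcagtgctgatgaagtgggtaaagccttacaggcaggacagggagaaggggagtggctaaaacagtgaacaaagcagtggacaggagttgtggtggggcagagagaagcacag
Cyp2c7: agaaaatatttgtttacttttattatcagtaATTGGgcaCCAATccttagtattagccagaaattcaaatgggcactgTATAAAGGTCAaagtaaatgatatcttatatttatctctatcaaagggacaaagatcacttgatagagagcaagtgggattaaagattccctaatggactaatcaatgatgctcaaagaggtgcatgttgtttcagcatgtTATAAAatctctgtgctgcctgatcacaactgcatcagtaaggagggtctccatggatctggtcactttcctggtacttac

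In the Cyp2j10 window, which has a GC content of 55.0% and 3 CpG, only ATTGG was marked, the reverse complement of CCAAT, from position -102. The Cyp2c7 window, at 36.7% GC and with no CpG, had TATAAA from positions -172 and -31, AGGTCA from -167, CCAAT from -211 and ATTGG from -219. Its upstream TATAAA and its AGGTCA share 1 base. GRCr8 is a later build than the rn5 of the peak list, and the start sites of the builds were not compared.

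**Figure D1:**
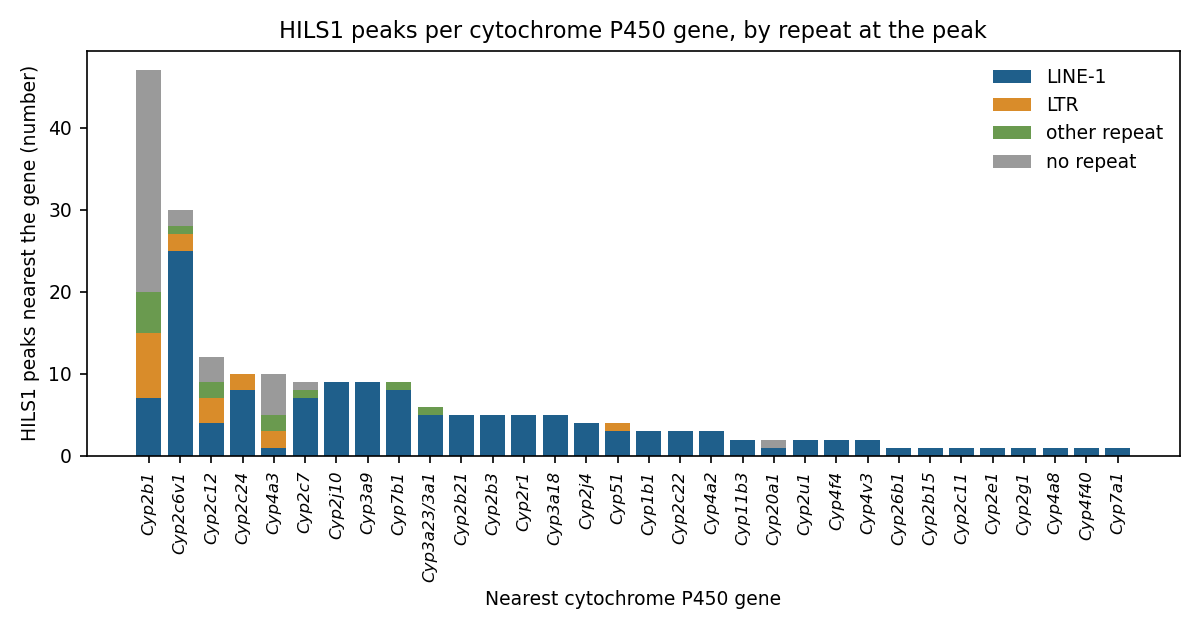
Bars give the number of HILS1 peaks nearest each of the 32 P450 genes, coloured by the repeat at the peak (LINE-1, LTR, other repeat, or no repeat named). Cyp2b1 with 47 peaks and Cyp2c6v1 with 30 stand above the rest, and only Cyp2b1, Cyp2c12 and Cyp4a3 have fewer peaks in LINE-1 than outside it.

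Peaks were spread unevenly over the genes. Cyp2b1 had 47 (22.8%, 17.6 to 29.0) and Cyp2c6v1 30 (14.6%, 10.4 to 20.0), followed by Cyp2c12 with 12, Cyp2c24 and Cyp4a3 with 10 each, and Cyp2c7, Cyp2j10, Cyp3a9 and Cyp7b1 with 9 each. These 9 genes held 145 of the 206 peaks, while 8 genes had 1 peak. By subfamily, Cyp2c had 65 peaks (31.6%, 25.6 to 38.2), Cyp2b 58 (28.2%, 22.5 to 34.7), Cyp3a 20, Cyp4a 14 and Cyp2j 13. In 22 genes with 67 peaks in all, every peak lay in LINE-1. RefSeq names 90 protein-coding Cyp genes in GRCr8, so 58 had no peak assigned, among them all 5 Cyp2d genes, all 3 Cyp2a genes and both Cyp1a genes. Of 41 subfamilies, 23 had no peak assigned. Nearest genes were assigned in rn5, and which of the 90 genes its annotation holds was not checked. A gene absent from it could have no peak assigned. The 32 of 90 are 35.6% (26.4 to 45.8), while 4551 of 20978 named protein-coding genes of that table (21.7%) had a nearest peak, genes known only by a LOC number left out.

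Fold enrichment, the linear ratio of a called peak to the MACS background, had a median of 23.2 for the P450 peaks, or 4.53 on the log2 scale (interval 4.41 to 4.64), against 4.64 for all peaks. By repeat, the P450 peaks in LINE-1 had a median fold of 25.9, those in LTR 14.8, those in other repeats 13.9 and those with no repeat 18.5. Over all peaks the medians were 26.9 in LINE-1, 15.7 in LTR and 16.7 with no repeat. By subfamily the median log2 fold ran from 3.84 in Cyp4a (interval 3.21 to 5.02) and 3.98 in Cyp2c (3.70 to 4.14) through 4.47 in Cyp2b (4.28 to 4.70) and 4.84 in Cyp2j (4.80 to 5.10) to 5.16 in Cyp3a (4.75 to 5.21), among those with at least 13 peaks. The interval of Cyp4a meets those of the other 4, and the intervals of Cyp2c and Cyp2b do not meet. The interval of Cyp3a overlaps those of Cyp2j and of the Cyp7b peaks, whose median was 4.75 (4.47 to 5.02). Segments of a called peak share its fold, and Cyp2j had 13 from 6 called peaks and Cyp3a 20 from 11. Of the 58 Cyp2b peaks, 47 were nearest Cyp2b1. Of the 65 Cyp2c peaks, 39 were nearest Cyp2c6v1 or Cyp2c7, with a median log2 fold of 3.59 (3.47 to 3.89). The other 26 had 4.17 (4.06 to 4.53), and that interval meets the interval of Cyp2b. No difference between subfamilies was tested.

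**Figure D2:**
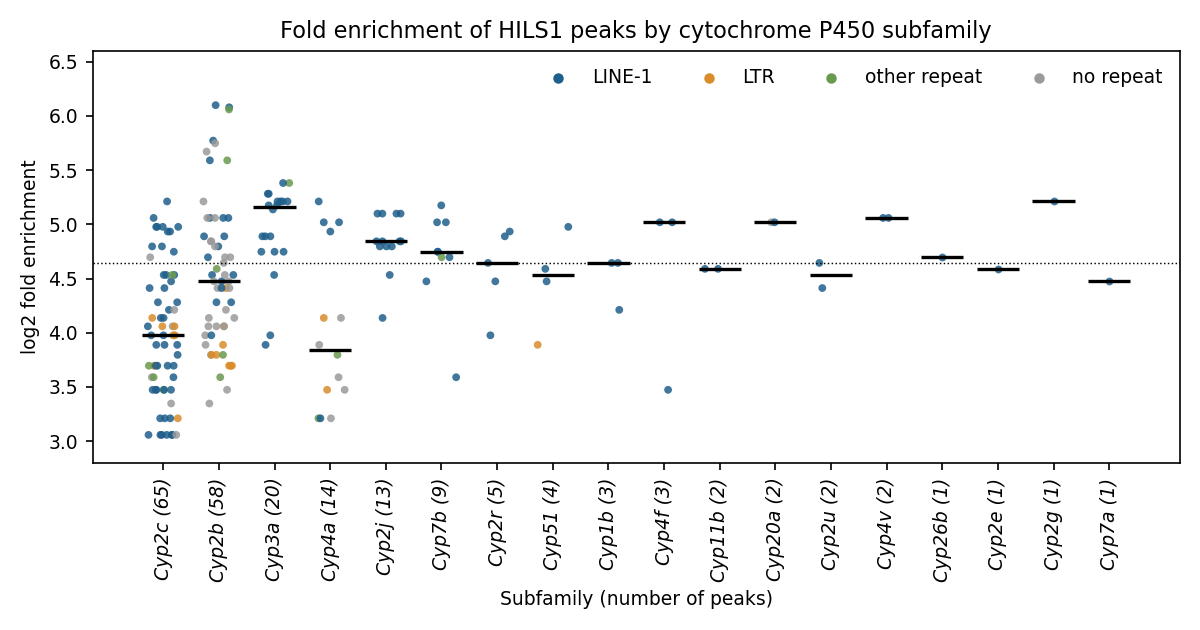
Each point is 1 peak, placed by its log2 fold enrichment (vertical axis) in its P450 subfamily (horizontal axis, with the number of peaks) and coloured by repeat. The black bars are medians and the dotted line is the median of all 32731 peaks, 4.64. Cyp2b spans the widest range, up to a fold of 68.5, and the lowest folds, 8.33, are all in Cyp2c.

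Drug-metabolizing enzymes came first by number, and among them the Cyp2c genes. Cyp2c enzymes hydroxylate steroids and drugs in rat liver, where Cyp2c11 is the male form and Cyp2c12 the female form. In rn5 their peaks lay on chromosome 1 in 2 blocks 110.9 Mb apart, 39 peaks nearest Cyp2c6v1 and Cyp2c7 and 26 nearest Cyp2c11, Cyp2c24, Cyp2c12 and Cyp2c22. RefSeq's GRCr8 table lists the same genes as a single run of 21 protein-coding genes from Cyp2c11 to Cyp2c22, of which 10 are named Cyp2c. The split is therefore that of rn5, in which the peaks were called.

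The first Cyp2c block, chr1:153681979-154521429 (rn5, 839 kb), had peaks over 3.27% of its length and was mostly intronic, as 35 of 39 peaks (89.7%, 76.4 to 95.9) lay in introns. Cyp2c7 introns held 29 of these, although HOMER gave Cyp2c6v1 as the nearest gene for 21 of the 29. All 21 were in the last intron of the Cyp2c7 transcript, intron 9 of 9, and were spread over 468 kb, 8 upstream and 13 downstream of the Cyp2c6v1 start site. In the rn5 annotation the start of Cyp2c6v1 therefore sits within an intron of Cyp2c7, whereas RefSeq's GRCr8 table has the genes side by side. The 6 peaks in introns of Cyp2c6v1 itself were 3 in intron 1, 2 in intron 5 and 1 in intron 6 of 8. The annotation of these 6 carries a suffix that the list does not explain. Whether it marks another placement of the transcript in rn5 cannot be told. The other 8 in Cyp2c7 were 4 in intron 5, 2 in intron 6 and 2 in intron 8.

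The promoter peak of Cyp2c6v1, chr1:154005022-154006068 (rn5), reached from 906 bp upstream to 140 bp downstream of the start site. Its fold was 10.2 at a false discovery rate of 9.90%, no repeat was named at its centre, and 14 P450 peaks and 2.14% of the whole list were below that fold. Its nearest upstream neighbours were weaker than it and its nearest downstream neighbours stronger. The upstream ones in intron 9 of Cyp2c7 had folds of 8.33 in L1_Rat3 at -2051 bp and 9.26 in Lx5c at -3742 bp. The downstream ones were in L1_Rn in intron 1 of Cyp2c6v1, at 2743 bp with a fold of 21.3 and at 6541 bp with 19.4. The next peak in that intron, at 8855 bp in Lx2B2, had a fold of only 8.33.

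Folds in this block were low. The median was 12.0, or 3.59 on the log2 scale (3.47 to 3.89), against 18.1, or 4.17 (4.06 to 4.53), in the second Cyp2c block. The intervals of the 2 blocks do not meet. All 7 P450 peaks at the lowest fold, 8.33, were in it, and so were 10 of the 12 with a false discovery rate over 20%. Of all P450 peaks 5.83% (3.36 to 9.90) were over that rate and of the whole list 3.05%. The median false discovery rate of the block was 12.1%, against 8.51% for the P450 peaks and 7.64% for all peaks. Its 32 LINE-1 peaks were of 12 named kinds. The 12 in L1_Rn, the commonest LINE-1 name of the list, had a median fold of 19.4 within 9.26 to 31.5, and the 20 in other LINE-1 kinds had a median of 11.1, within a range of 8.33 to 37.0. In this block 3 peaks were in L1_Mur1, an element named at only 21 peaks of the list, each with a fold of 11.1.

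**Figure D3:**
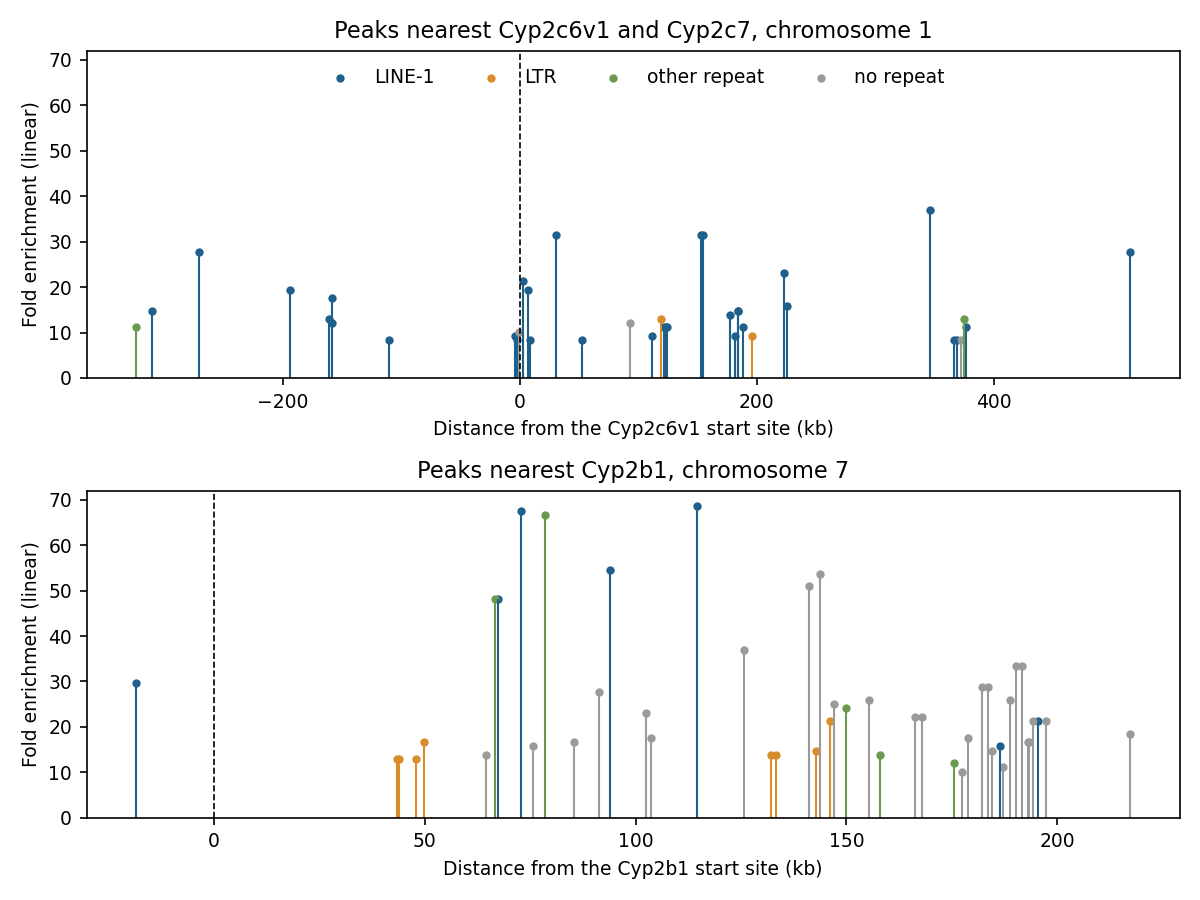
Fold enrichment (linear, vertical axis) is plotted against distance from a start site in kb (dashed line) for the 39 peaks nearest Cyp2c6v1 and Cyp2c7 (upper panel) and the 47 nearest Cyp2b1 (lower panel), coloured by repeat. The upper block is wide, mostly LINE-1 and mostly under a fold of 20, and the lower one is dense, downstream, and holds the highest P450 folds, up to 68.5.

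The second Cyp2c block covered 1238 kb, with 2.10 peaks per 100 kb against 4.65 in the first. Only 2 of its 26 peaks were intronic, 1 in intron 6 of 8 of Cyp2c11 with a fold of 21.3 and 1 in the last intron of Cyp2c13 with a fold of 16.7. LINE-1 made up 16 of the 26 (61.5%, 42.5 to 77.6). The 12 peaks of Cyp2c12 had folds from 12.0 to 33.3, and 4 of them were in LINE-1. Its 3 peaks in RNIAP1a, an endogenous retrovirus, had folds of 15.7, 16.7 and 16.7. The female-form gene had its nearest peak 5511 bp upstream, in L1_Rn, with a fold of 31.5, and the male-form gene had a single peak, 22785 bp downstream. Cyp2c24 had 8 LINE-1 peaks of 10, with folds from 13.0 to 26.9, the nearest to its start site at -6256 bp. Cyp2c22 had 3, all in L1_Rn, with folds of 30.6, 30.6 and 13.0.

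Cyp2b1, the phenobarbital-inducible enzyme of rat liver, had the largest number of peaks of the 32 genes, and LINE-1 was named at few of them. In rn5 its start site is placed on chromosome 7 beside Sqle, the squalene epoxidase of cholesterol synthesis. In RefSeq's GRCr8 table it is on chromosome 1, with Cyp2s1 before it and Cyp2b2 and Cyp2b3 after it. The peaks belong to the chromosome 7 region of rn5 and their assignment to Cyp2b1 rests on that placement. A single peak lay upstream, at 18449 bp, in L1_Rn with a fold of 29.6. The 46 others lay at chr7:99795296-99969832 (rn5, 175 kb), with peaks over 27.0% of the length and 26.4 peaks per 100 kb. After a gap of 19.0 kb the array went on with 34 peaks nearest Sqle at 25.9 per 100 kb. All 47 lay in a window of 1 Mb that holds 53 peaks, the only window of the list with at least 50 peaks that has any P450 peak. None was intronic.

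Of the 47, only 7 were in LINE-1 (14.9%, 7.41 to 27.7), 8 were in LTR, 5 in other repeats and 27 (57.4%, 43.3 to 70.5) had no repeat named. The 7 LINE-1 peaks had a median fold of 48.2, within 15.7 to 68.5, and the 8 LTR peaks a median of 13.9, within 13.0 to 21.3. Those without a repeat lay between, with a median of 22.2 within 10.2 to 53.7. The 3 highest folds of the family were all here: 68.5 in L1VL4a at 114505 bp, 67.6 in Lx8 at 72734 bp and 66.7 in B3, a SINE, at 78439 bp. The highest was above 99.1% of the list. Cyp2b1 also held 8 of the 10 P450 peaks with a fold over 40.

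The remaining Cyp2b genes lay on chromosome 1 in rn5, and there 11 of 11 peaks were in LINE-1 (100%, 74.1 to 100), with folds from 19.4 to 33.3. Cyp2b3 had 3 segments of a called peak in its last intron, intron 8 of 8, in L1_Rn with a fold of 33.3, 1 in intron 6 in RNHAL1 with 23.2, and 1 downstream in L1_Rat1 with 23.2. Cyp2b21 had 1 in intron 4 of 8, 10223 bp past its start, in RNHAL1 at 22.2-fold, and 4 in L1_Rat1 downstream. The single Cyp2b15 peak, with a fold of 29.6 in Lx8, lay in an intron of Atad1, a mitochondrial ATPase gene, while RefSeq's GRCr8 table places Cyp2b15 between Cyp2b14 and Cyp2g1. The single peak nearest Cyp2g1, an enzyme of the olfactory mucosa, lay in an intron of Cyp2b12, with a fold of 37.0.

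**Figure D4:**
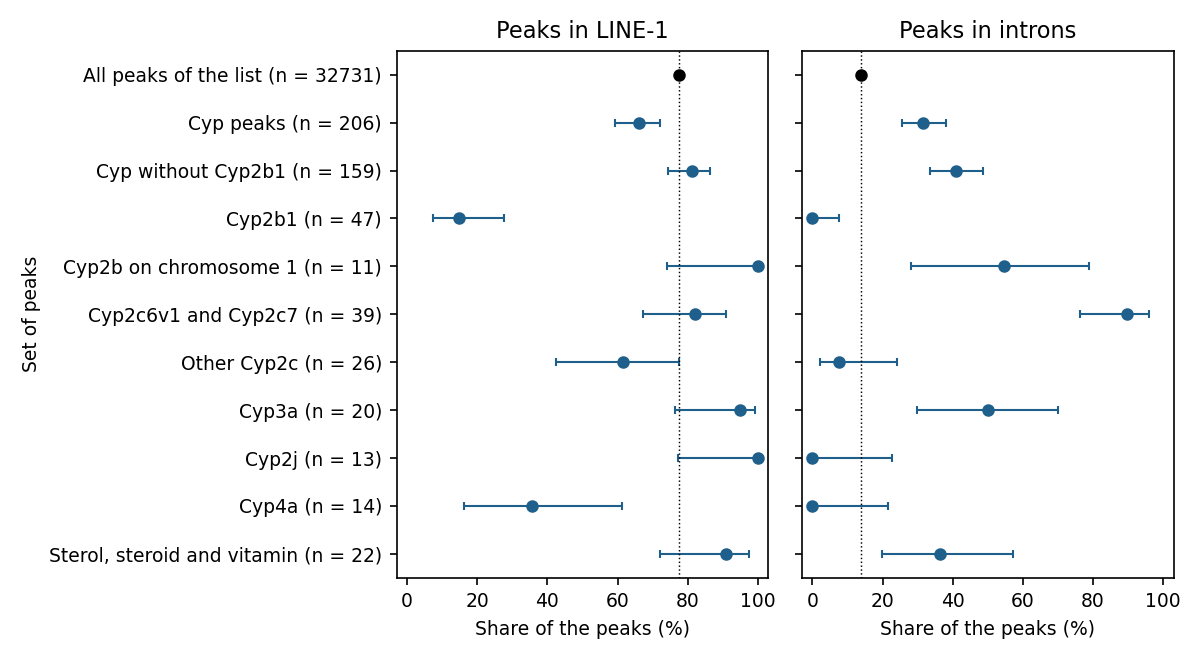
Points give the share of peaks in LINE-1 (left) and in introns (right), in percent, with 95% Wilson intervals, for the whole list (black, with a dotted line at its value) and for sets of P450 peaks, with the number of peaks beside each name. Cyp2b1 and Cyp4a lie far below the list's LINE-1 share of 77.6%, and Cyp2c6v1 with Cyp2c7 lies far above its intronic share of 13.9%.

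The LINE-1 share of the family was lowered by Cyp2b1. Without it, 129 of 159 peaks (81.1%, 74.3 to 86.5) were in LINE-1, and the interval includes the 77.6% of all peaks. These 159 are also the P450 peaks outside windows of 1 Mb with at least 50 peaks, and of the 26403 peaks of the list outside such windows 89.1% were in LINE-1, above the interval. Much of the intronic share came from the block of Cyp2c6v1 and Cyp2c7. Without that block it was 18.0% (12.9 to 24.5), and the interval includes 13.9%. That count keeps the 47 intergenic peaks of Cyp2b1. With both left out, 30 of 120 peaks (25%, 18.1 to 33.4) were intronic, against 16.3% of the list outside such windows, below the interval. The nearest genes of the 30 included Cyp3a genes for 10, Cyp2b genes for 6 and Cyp2r1 for 5. Within introns, LINE-1 took 59 of 65 peaks (90.8%), against 88.1% of all intronic peaks. Between genes it took 77 of 139 (55.4%), against 76.1%, and most of the other intergenic peaks were those of Cyp2b1.

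Cyp3a enzymes are the main hydroxylases of drugs and testosterone in the liver. Their 20 peaks on chromosome 12, from 11 called peaks, included 19 in LINE-1 (95%, 76.4 to 99.1), and 10 of these were in RNHAL1, which accounted for 10.2% of the LINE-1 peaks of the list. Cyp3a23/3a1 had 6, all in intron 9 of 15 of Cyp3a2: 2 in RNHAL1 with a fold of 38.9, 2 in RNHAL1 with 36.1, and 1 each in L1_Rn and the satellite RatSatRep2 with 41.7. These 6 are the highest set of any gene with at least 5 peaks, by a median fold of 38.9. They are segments of only 3 called peaks, and the 2 segments of each share its fold. Cyp3a9 had 9, with 2 in intron 12 of 13 and 1 in intron 10 in L1_Rat1 with folds of 26.9 and 23.2. A called peak of 4 segments in L1_Rn, with a fold of 37.0, lay 51784 to 56601 bp downstream of its start site. Cyp3a18 had 5, all in RNHAL1, 1 of them in its intron 1 of 12 at 7107 bp with a fold of 15.7. The other 4 lay 73499 to 77852 bp downstream with folds from 29.6 to 35.2.

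Other drug enzymes had few peaks. Cyp1b1, which hydroxylates estradiol, had 3 segments in L1_Rat1 from -101888 to -105431 bp, with folds of 18.5, 25.0 and 25.0. Cyp2e1, the ethanol-oxidizing enzyme, had 1 in L1_Rat1 at -14009 bp with a fold of 24.1.

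Fatty acid enzymes had 34 peaks nearest 9 genes, 25 of them in LINE-1 (73.5%, 56.9 to 85.4). Cyp2j enzymes, which epoxidize arachidonic acid, had 13 of 13 in LINE-1. The 9 peaks of Cyp2j10 were all in L1_Rn. Upstream of its start site a called peak of 3 segments, with a fold of 27.8, was centred at -1616, -2461 and -3578 bp. The nearest edge was 1130 bp from the start site in rn5. Downstream, a called peak of 4 segments with a fold of 34.3 lay at 54959 to 60665 bp, with another peak on each side, with folds of 23.2 and 28.7. Cyp2j4 had 4 segments in L1_Rat1, 289926 to 295227 bp away. Cyp2u1, which hydroxylates long-chain fatty acids, had 2 peaks in its intron 2 of 5, in L1_Rat1, at 7026 and 7819 bp, with folds of 21.3 and 25.0.

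Cyp4a enzymes hydroxylate fatty acids at the terminal carbon. The 10 peaks of Cyp4a3 were packed into 14.8 kb, 20459 to 34473 bp downstream of its start site, and covered 42.5% of that length. Their folds were low, with a median of 11.6 within 9.26 to 17.6. Only 1 was in LINE-1, with 5 at which no repeat was named, 2 in RLTR14-int, an endogenous retrovirus, and 2 in RatSatRep2. Elsewhere in the subfamily all peaks were in LINE-1. Cyp4a2 had 3 peaks in L1_Rat1 with folds from 30.6 to 32.4, and Cyp4a8 had 1 in RNHAL1 with a fold of 37.0. Cyp4v3 had 2 in Lx3B, an element named at only 6 peaks of the list, with a fold of 33.3. Cyp4f4 had 2 in RNHAL1 with a fold of 32.4, and Cyp4f40 had 1 in RNHAL1, in an intron of Cyp4f5, with 11.1.

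Among 16 enzymes of steroid, sterol and retinoid metabolism, 3 had a nearest peak, Cyp7b1, Cyp51 and Cyp26b1, with 14 peaks in all. That is 18.8% of the 16 (6.59 to 43.0), and the interval includes the 21.7% of all named genes. All 14 were upstream of the start site, none was within 25433 bp, and 12 were in LINE-1. The list leaves out Cyp11b3, Cyp7a1 and Cyp2r1, and with these 16 of 22 peaks were upstream and 1 was within 10 kb. Cyp7b1, the oxysterol hydroxylase that opens the alternative pathway to bile acids, had 9, from -78742 to -445234 bp, the farthest of the family. The farthest had a fold of 12.0, and the other 8 had folds from 22.2 to 36.1. Cyp51 had 4, at -25433, -29820, -74856 and -191957 bp. Their folds were 24.1 and 31.5 in L1_Rn, 22.2 in L1_Rat1 and 14.8 in the LTR element NICER-int, in that order. Cyp26b1, which degrades retinoic acid and holds germ cells of the fetal testis out of meiosis, had 1 peak at -99608 bp, in intron 20 of 21 of Exoc6b, with a fold of 25.9. No peak was assigned to the other 13, which include Cyp11a1, Cyp17a1 and Cyp19a1, the enzymes of testosterone and estrogen synthesis. Cyp11b1, of corticosteroid synthesis, was nearest to no peak but held 2 in its intron 2 of 8, nearest Cyp11b3, in L1_Rat1 with a fold of 24.1.

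Vitamin and bile acid enzymes outside that list had 6 peaks. Cyp2r1, the 25-hydroxylase of vitamin D, had 1 in its own intron 2 of 4 at 7378 bp, with a fold of 30.6 in L1_Rat2. Its other 4 lay in intron 5 of 16 of Pde3b, a phosphodiesterase gene, with folds from 15.7 to 29.6. Cyp7a1, the rate-limiting enzyme of bile acid synthesis, had 1 at 17710 bp in L1_Rn, with a fold of 22.2.

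Cyp20a1, an orphan enzyme with no settled substrate, had the single peak at a transcript end, chr9:66994073-66994671 (rn5), 598 bp long. No repeat was named there, as at all 15 transcript-end peaks of the list. The fold of the peak was 32.4, above 74.0% of the list. That value is shared with an adjacent segment of the same called peak, 1624 bp long, in RNHAL1 just beyond the gene. The TTS peak thus has no fold of its own.

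**Figure D5:**
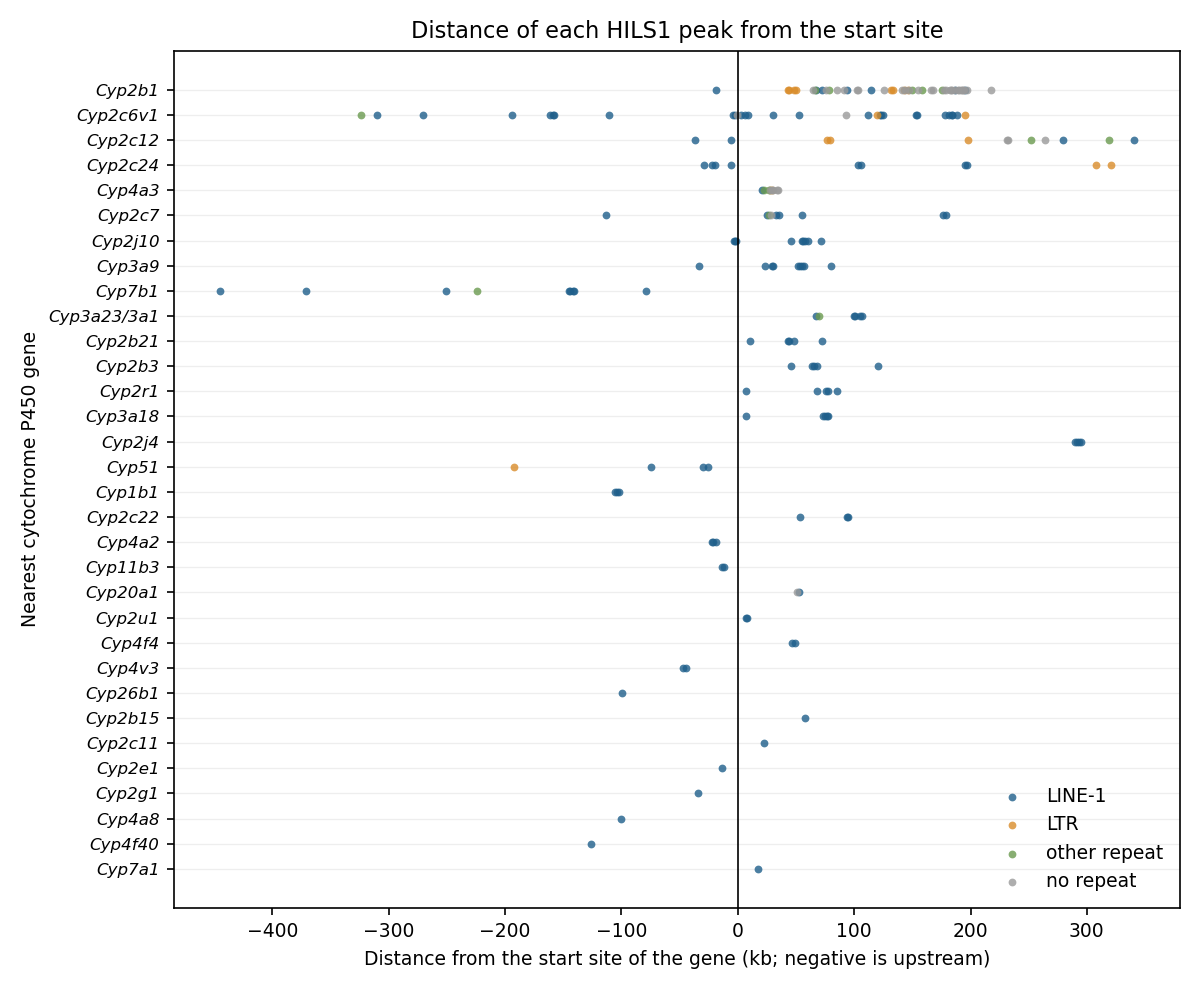
Each point is 1 peak, at its distance from the start site of its nearest P450 gene in kb (horizontal axis, upstream negative), with genes in rows by number of peaks and colour for the repeat. Most points lie to the right of 0. In 7 genes the nearest peak is within 10 kb of the start site, and 7 genes have peaks on both sides of it.

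The median distance to the start site was 79.7 kb (71.8 to 104), against 199 kb for all peaks. Within 1 kb lay only the Cyp2c6v1 promoter peak, within 10 kb 15 peaks (7.28%; all peaks 3.85%) and within 100 kb 113 (54.9%; all peaks 32.6%). Of the 15, 6 were nearest Cyp2c6v1 and 3 were segments of a called peak near Cyp2j10. The P450 peaks were also more often intronic than the list. Within 10 kb lay 13.8% of intronic P450 peaks (all intronic 6.07%) and 3.60% of intergenic ones (all intergenic 3.31%). The median distances were 68.4 kb (all intronic 79.7) and 93.9 kb (all intergenic 237). In 7 genes the nearest peak was within 10 kb and in 2, Cyp2c6v1 and Cyp2j10, within 5 kb. Upstream peaks numbered 51 of 206 (24.8%, 19.4 to 31.1), against 52.0% of the list, and without Cyp2b1 50 of 159 (31.4%, 24.7 to 39.0). Of the intergenic P450 peaks 25.9% were upstream, against 58.0% of all intergenic peaks. The intergenic P450 peaks include all 47 of Cyp2b1, of which only 1 was upstream. By gene the sides were more even: 11 genes had upstream peaks only, 14 downstream only and 7 both.

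The intron a peak lay in often belonged to another gene than the nearest one. Of the 65 intronic peaks, 27 were in an intron of the nearest gene, 32 in an intron of another P450 gene and 6 in Pde3b, Atad1 or Exoc6b. With the promoter and TTS peaks, 61 peaks were annotated to P450 transcripts, and all 61 had a P450 gene as the nearest gene. The 27 had folds from 8.33 to 37.0, with a median of 21.3, and 24 of them were in LINE-1. They came from 9 genes: Cyp2c7 with 8, Cyp2c6v1 with 6, Cyp2b3 with 4, Cyp3a9 with 3, Cyp2u1 with 2 and Cyp2b21, Cyp2c11, Cyp2r1 and Cyp3a18 with 1 each.

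By named element, L1_Rn was at 50 P450 peaks nearest 16 genes (24.3%; all peaks 37.2%), with a median fold of 29.2. L1_Rat1 was at 32 nearest 14 genes (15.5%; all peaks 23.5%), with a median fold of 24.1. RNHAL1 was at 22 nearest 11 genes (10.7%; all peaks 7.93%), with a median fold of 29.6. These 3 made up 104 of the 136 LINE-1 peaks (76.5%, 68.7 to 82.8), against 88.5% over the list. The satellite RatSatRep2 was at 7 P450 peaks nearest 6 genes, with folds from 9.26 to 41.7. The highest of these is shared with a segment in L1_Rn of the same called peak.

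MACS numbers its called peaks along the chromosomes, and the list holds 24679 of the numbers from 5 to 46580 (53.0%). Between the first and last called peak of the Cyp2b1 array it holds 38 of 46 numbers (82.6%, 69.3 to 90.9). For the Cyp2c6v1 and Cyp2c7 block it holds 36 of 86 (41.9%, 32.0 to 52.4) and for the other Cyp2c block 27 of 69 (39.1%, 28.5 to 50.9). Both ends of a region are in the list by construction. The authors kept only called peaks that overlapped between the replicates and were within limits of length, and which of these steps removed a number cannot be read from the list.

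Peaks were also counted for genes that work with P450 enzymes. Of 12 redox partner genes, 3 had a peak: Cyb5r2, Pgrmc1 and Pgrmc2, with 4 peaks, all in LINE-1. That is 25% of the 12 (8.89 to 53.2), with 21.7% of all named genes within the interval. Por, the reductase itself, had none. Of 14 regulators, Ahr, the receptor for dioxins and aromatic hydrocarbons, had 1 peak at -10.1 kb and Rarb, a retinoic acid receptor, had 5, all in LINE-1. These 2 genes are 14.3% of the 14 (4.01 to 39.9), again with 21.7% within the interval. The glucuronosyltransferases (Ugt) had 17 peaks nearest 6 of 21 listed genes and glutathione transferases (Gst) 12 nearest 4 of 28. Flavin monooxygenases (Fmo) had 15 nearest 5 of 8 and acetyltransferases (Nat) 6 nearest 2 of 3. Of these peaks, 16, 12, 15 and 6 were in LINE-1. The 4 epoxide hydrolases (Ephx) had none. Carboxylesterases (Ces) had 191 nearest 8 of 19 genes. Of the 191, 56 were in LINE-1 (29.3%, 23.3 to 36.1) and 163 were in windows of 1 Mb with at least 50 peaks. Sulfotransferases (Sult) had 43 nearest 7 of 16 genes. Of the 43, 24 were in LINE-1 and 35 in such windows. Beside these gene counts, 21.7% of all named genes had a nearest peak. LINE-1 was thus at a minority of the peaks of Cyp2b1 (14.9%) and of the Ces genes. Over all 6328 peaks of such windows the share was 29.5%, against 89.1% elsewhere. LINE-1 was also at a minority of the peaks of Cyp4a3 (1 of 10) and Cyp2c12 (4 of 12), none of which lay in such windows. A link between the density of peaks and the LINE-1 share was not tested.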

How the data were processed

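The list of HILS1 peaks was read as deposited, with coordinates of rn5. Per the paper's methods, the authors aligned trimmed read pairs uniquely with Bowtie2, removed duplicates, called peaks in each replicate against input with MACS, intersected the replicates with bedtools and annotated the regions of 100 to 4000 bp with HOMER. Unique alignment leaves out reads that match near-identical copies equally well. The deposited fold enrichment is a linear ratio over the MACS background, the deposited score rises with the negative log10 of the p-value, and the false discovery rate is in percent. All are values of the called peak, shared by its segments, and the replicate they come from is not stated. The submitters' notes also name Trim Galore, FastQC and SAMtools. Read totals per library, and so the depth, were not used here.

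Folds were converted to log2. Each share was given a 95% Wilson interval and each median a 95% interval by order statistics. No test was run, since peaks are not replicates. Introns were assigned by the transcript that HOMER names, and names and neighbours of genes came from RefSeq (GRCr8), in which all 32 genes were found. None of its coordinates is printed. They served only for the order of genes and for the promoter windows. Genes were named by rule: those with a peak in an exon, UTR, promoter, TTS or own intron, the 10 with the most peaks, those with extreme folds or distances, and steroid, sterol and retinoid enzymes with a peak. The remaining P450 genes and the genes of the wider lists with a peak were added after their values were seen. Members and lists were chosen with earlier results of these data known. The alternatives were segments counted once per called peak, limits on score (100), fold (16), false discovery rate (10%) and length (500 bp), peaks less than 6000 bp apart counted once, peaks annotated to P450 transcripts, the list without Cyp2b1, without Cyp2c6v1 and Cyp2c7 or without all 3, and the list without windows of 1 Mb with at least 50 peaks. The interval functions were tested on simulated data. The software was Python 3.11.15, pandas 2.3.3, scipy 1.17.1, numpy 2.4.6 and, for plots, matplotlib 3.10.9.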

Additional observations from a re-analysis of the deposited data

How the results depend on the processing

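Of 55 values under 11 alternatives, 28 stayed within the interval of the reported value and 27 moved. The alternatives without Cyp2b1 and without windows of 1 Mb with at least 50 peaks leave the same 159 peaks. Their values therefore enter this count more than once. Without Cyp2b1, and likewise without windows of 1 Mb with at least 50 peaks, the LINE-1 share was 81.1%, the intronic share 40.9%, the Cyp2c share 40.9% and the median distance 69958 bp. Leaving out those windows, Cyp2c6v1 with Cyp2c7, or these with Cyp2b1 was chosen after seeing the data. Without Cyp2c6v1 and Cyp2c7 the intronic share was 18.0% and the Cyp2c share 15.6%. Without all 3 genes the LINE-1 share was 80.8%, the intronic share 25%, the Cyp2c share 21.7%, the median log2 fold 4.70 and the median distance 62136 bp. A fold of at least 16 gave a LINE-1 share of 72.7%, a Cyp2c share of 21.0% and a median log2 fold of 4.80, the last by construction. A false discovery rate of at most 10% gave a Cyp2c share of 21.6% and a median log2 fold of 4.75. With peaks less than 6000 bp apart counted once, the LINE-1 share was 75% and the Cyp2c share 39.6%. Peaks annotated to P450 transcripts gave a LINE-1 share of 86.9%, an intronic share of 96.7%, which that choice fixes, a Cyp2c share of 62.3%, a median log2 fold of 4.28 and a median distance of 65413 bp. Where genes or windows were left out, the shares follow from the counts of the peaks removed. The cause of the other shifts was not tested.

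The list gives no value per replicate and no read counts, and neither replicate error nor depth stands beside any value. No paired analysis was possible because the list holds only regions shared by both ChIP replicates and no column belongs to a single replicate. Leaving out a replicate was not run, for the same reason. The placement of Cyp2b1, Cyp2b15 and the Cyp2c genes differs between rn5 and GRCr8, and results that name these genes hold for rn5.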
